A study of Mus musculus with 6 samples.

Results

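The cell cycle and mitosis genes are 42 mouse genes chosen by symbol from the 37991 genes in each count file. By role they are 10 DNA replication genes, 19 mitosis genes, 8 cyclins, 3 transcription factors and 2 inhibitors. All were found, and 41 passed the filter on low counts, Cdkn2a being the exception. RNA came from tumours of mouse cutaneous squamous cell carcinoma, a cancer of skin keratinocytes, with the genotype Kindlin-1 WT in 3 libraries and Kindlin-1 Null in 3. Fermt1 encodes Kindlin-1, an adaptor of integrins. The sources used here do not give strain, age, tumour site, how many clones stand behind the carcinoma cells or what immune cells the host has. Titles repeat a mouse number for WT libraries 1 and 2 and another for Null libraries 2 and 3, so a group may be 2 animals. For Null library 3 the number in the deposited file name disagrees with the title, so that repeat is uncertain.

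A dividing cell copies its DNA in S phase and separates the copies in mitosis. Cyclins activate the kinases that drive each step, E2F factors switch on replication genes, and FOXM1 and MYBL2 switch on mitotic genes. Inhibitors such as p21 and p16 stop the cycle. Mki67, which encodes the Ki-67 antigen of dividing cells, is a common measure of proliferation in tumours. Because whole tumours were sequenced, fewer dividing cells and less RNA per dividing cell cannot be told apart.

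Promoters of these genes carry known classes of elements. CCAAT boxes (CCAAT) and the cell cycle homology region (CHR, TTTGAA) are common in mitotic genes, and E2F sites (searched as TTTCCCGC, TTTGGCGC, TTTCGCGC or TTTGCCGC) in replication genes. Both strands of the 250 bases before each start were searched in RefSeq promoters of GRCm38.p6, which matched 32 members. Mcm4, Cdc25c, Aurkb, Kif20a, Tpx2, Ccna2, Ccnd1, Ccnd2, Ccne2 and Foxm1 did not match. A CHR was found in 6 of 15 mitosis and 1 of 9 replication genes, against 16% of all 32851 windows. A CCAAT box was found in 13 of 15 mitosis and 8 of 9 replication genes, against 33.8%. An E2F site was found in 3 of 9 replication genes and 1 of 15 mitosis genes, against 1.86%. Mki67 is shown because it had the lowest fold change, Top2a as a mitosis gene with the same kinds of element, and Rrm2 and Mcm6 as replication genes. Sequences run 5′ to 3′ on the gene's strand with the motifs in capitals.
Mki67: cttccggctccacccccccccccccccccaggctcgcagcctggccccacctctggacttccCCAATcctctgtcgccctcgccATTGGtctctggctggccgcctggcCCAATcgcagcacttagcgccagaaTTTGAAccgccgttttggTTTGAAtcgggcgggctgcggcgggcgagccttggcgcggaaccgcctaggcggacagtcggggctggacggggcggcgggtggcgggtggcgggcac
Top2a: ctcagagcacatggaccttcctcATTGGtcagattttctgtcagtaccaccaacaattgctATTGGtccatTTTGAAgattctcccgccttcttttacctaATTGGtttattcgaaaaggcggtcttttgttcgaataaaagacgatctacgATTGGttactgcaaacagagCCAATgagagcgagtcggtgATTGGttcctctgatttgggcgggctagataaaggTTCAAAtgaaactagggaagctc
Rrm2: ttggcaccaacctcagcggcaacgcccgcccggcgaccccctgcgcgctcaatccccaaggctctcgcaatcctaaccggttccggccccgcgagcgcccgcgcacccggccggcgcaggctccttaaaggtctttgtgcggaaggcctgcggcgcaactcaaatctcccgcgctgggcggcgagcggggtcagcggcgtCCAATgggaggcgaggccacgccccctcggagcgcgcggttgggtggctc
Mcm6: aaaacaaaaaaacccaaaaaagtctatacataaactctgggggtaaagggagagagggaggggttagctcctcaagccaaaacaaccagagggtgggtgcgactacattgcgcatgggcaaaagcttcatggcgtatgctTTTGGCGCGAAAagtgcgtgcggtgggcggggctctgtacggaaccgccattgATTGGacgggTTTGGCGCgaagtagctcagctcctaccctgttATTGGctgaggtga
The Mki67 window (chr7:135716380-135716629, minus strand) held 2 CHR and 3 CCAAT matches, and that of Top2a (chr11:99024190-99024439, minus strand) 2 and 6. The Rrm2 window (chr12:24708004-24708253, plus strand) held 1 CCAAT match. The Mcm6 window (chr1:128359706-128359955, minus strand) held 2 CCAAT matches and 3 E2F matches, 2 of which overlap each other. A match describes letters and does not show that a factor binds there.

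Depth and tissue content varied between libraries. Reads in genes ran from 161711 (WT library 2) to 31487255 (Null library 2), so that 3 counts equal 18.6 and 0.0953 CPM there (read counts scaled to the library total). Fermt1 had 16, 2 and 1040 reads in the WT and 0, 2 and 2 in the Null libraries. In CPM these are 12.5, 12.3 and 64.9 for WT and 0, 0.0634 and 0.393 for Null. Among the listed keratinocyte markers, Krt5 had at most 5 reads in any library and Epcam at most 3.74 CPM. Dsp had at most 6.14 CPM, which is 1 read in WT library 2, while Itgb4 lay between 150 and 313 CPM. For the markers below, rose and fell mean an edgeR adjusted p under 0.05. The summed level of 15 skeletal muscle markers was 697 to 1786 CPM in WT and 130 to 192 CPM in Null libraries. All 14 tested were below 0 on the log2 scale, and 13 fell. For 8 mast cell markers the sum was 376 to 1051 against 1430 to 4744 CPM (all 8 above 0, of which 6 rose). For 12 T and NK cell markers it was 74.8 to 135 against 147 to 196 CPM (2 of 6 tested rose, Gzma and Prf1). The T cell genes Cd3e, Cd3d, Cd3g, Cd2, Cd8a and Cd8b1 were too low to be tested. On the log2 scale 5 of the 6 tested were above 0, and Cd4 was below (-0.17). Adipocyte markers summed to 97.1 to 251 against 43.5 to 94 CPM (all 4 tested below 0, of which 3 fell). The keratinocyte markers summed to 295 to 436 against 244 to 283 CPM (1 of 7 tested fell, Krt14). Most of the keratinocyte sum was Itgb4 in every library, which did not pass (edgeR adjusted p = 0.338). On the log2 scale 3 of the 7 tested keratinocyte markers were above 0 (Trp63, Cdh1 and Krt8) and 4 below. Macrophage, fibroblast and endothelial sums overlapped between the genotypes. All 3 sums were lowest in WT library 3, at 3593, 6843 and 125 CPM. They were 6484, 12467 and 183 CPM in WT library 1 and 6549, 11378 and 184 CPM in WT library 2. WT library 3 also had the highest shares of unassigned (12%) and multiply aligned (40%) reads. Of 8 fibroblast markers 2 rose (Lum 2.92 and Dcn 1.44 on the log2 scale) and 2 fell (Col1a2 -1.61 and Thy1 -1.62), while none of 10 macrophage and 7 endothelial markers passed in edgeR (1 and 0 at an unadjusted p under 0.05, 0 and 0 in DESeq2, 1 and 0 in limma-voom). The part of these cells in the results below was not tested.

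Mki67 was the only tested member that passed, and it fell (edgeR quasi-likelihood fit over all genes, Benjamini-Hochberg adjusted p under 0.05), while 0 rose. At an unadjusted p under 0.05 the count in either direction was 12. The share of all genes at that threshold is not given, here or for the other lists, so no excess can be read from such counts. By adjusted p the count was 1 in DESeq2, where 689 of 12722 genes passed. It was 4 in limma-voom with mouse number as a random term, where 8.08% of all genes passed. The 1 edgeR call is 2.44% of the tested members, where 5.79% of all 11887 tested genes passed, 2.26% as higher and 3.52% as lower in Null. A log2 fold change (Null minus WT) within 0.5 of 0 was found for 28 members, 68.3% against 57% of all genes. Values were above 0 for 31 of 41 members (75.6%, all genes 50.7%), and their median was 0.19 (all genes 0.01).

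**Figure D1:**
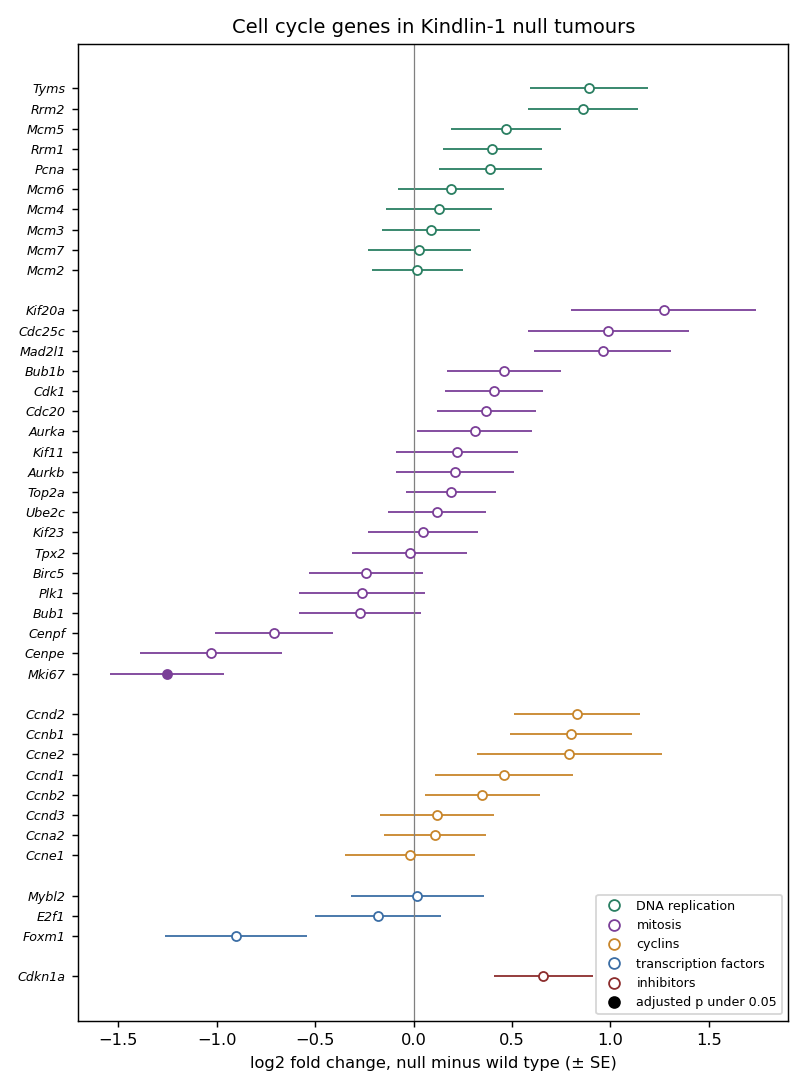
Log2 fold change (Null minus WT, with standard error) of the 41 tested members by role, with filled points for an adjusted p under 0.05. Mki67 at -1.25 is the only filled point, and the 10 replication genes lie between 0.02 and 0.89 with all 6 libraries.

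By role, the median log2 fold change was 0.29 for replication, 0.19 for mitosis, 0.41 for the cyclins and -0.18 for the transcription factors. All 10 replication genes had values above 0 with all 6 libraries, but the values of 4 MCM genes turned negative in some alternatives. Mcm7 stood at -0.23 and Mcm2 at -0.04 without WT library 3, Mcm2 at -0.12, Mcm7 at -0.05 and Mcm3 at -0.01 without Null library 2, and Mcm4 at -0.02 in limma-voom. The mitosis genes were the most spread, from -1.25 to 1.27, with 12 above and 7 below 0. Without WT library 3 the medians were 0.20 for replication, 0.08 for mitosis and 0.27 for the cyclins.

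Mki67 (ENSMUSG00000031004) stood at 258, 270 and 334 CPM in WT libraries 1, 2 and 3, and at 74.6, 152 and 133 CPM in the Null ones. Each Null value was under each WT value, and Null library 1 was the lowest. They rest on 330, 44 and 5349 reads for WT and 81, 4811 and 676 reads for Null. Mean levels were 287 ± 40.8 and 120 ± 40.5 CPM (SD, n = 3), a 2.38-fold fall (log2 fold change -1.25, SE 0.29, edgeR adjusted p = 0.0288).

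The direction of Mki67 held in every alternative (log2 fold change -0.94 to -1.49), but its call did not. The edgeR adjusted p was 0.041, 0.0507 and 0.0514 when WT library 1, 2 or 3 was left out, in fits that called 6.66%, 4.28% and 2.64% of all genes. It was 0.101, 0.0256 and 0.0803 when Null library 1, 2 or 3 was left out, with 1.38%, 4.82% and 2.09% called. Summing the libraries that repeat a mouse number gave 0.0629 (3.57% called), and summing the WT ones alone 0.0525 (3.81%). A random effect of mouse number in limma-voom gave 0.0264 (8.08%). So the call was lost without WT library 2 or 3, without Null library 1 or 3 and in both sums.

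Top2a, the topoisomerase that untangles DNA and another usual proliferation marker, had other values than Mki67. It stood at 140, 147 and 157 CPM in WT and 181, 172 and 156 CPM in Null libraries, which overlap (log2 fold change 0.19, SE 0.23, edgeR adjusted p = 0.645). Within a library, where scaling cancels, the ratio of Mki67 to Top2a was 1.84, 1.83 and 2.12 for WT and 0.413, 0.889 and 0.855 for Null. These ratios did not overlap, with means of 1.93 ± 0.163 and 0.719 ± 0.265 (SD, n = 3). Mki67 is the member already called above, so this is not a separate result. A trend with transcript length (described below) does not cancel in the ratio, and the longest transcripts have 10061 (Mki67) and 5221 (Top2a) bases. With that trend removed the log2 fold changes were -0.94 for Mki67 and 0.33 for Top2a. Mki67 made up 22.4 to 25.9% of the summed CPM of the mitosis genes in WT and 7.2 to 13.7% in Null libraries.

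Cenpe, Foxm1 and Cenpf had the next lowest fold changes, and none passed. Cenpe, a kinetochore motor that aligns chromosomes, stood at 47.6, 55.3 and 89.2 CPM for WT and 14.7, 44.1 and 35 for Null (-1.03, SE 0.36, edgeR adjusted p = 0.102). Foxm1 stood at 89, 147 and 76.8 CPM for WT and 23, 64.7 and 59.2 for Null (-0.90, SE 0.36, edgeR adjusted p = 0.14). Neither gene's groups overlapped. Cenpf, a large kinetochore protein, stood at 88.2, 36.9 and 110 CPM for WT and 46.1, 65.5 and 48.2 for Null (-0.71, SE 0.30, edgeR adjusted p = 0.165), where the overlap came from the 6 reads of WT library 2. Null library 1 was the lowest Null library for Mki67 and these 3 genes. Without it their log2 fold changes were -1.03 for Mki67, -0.79 for Cenpe, -0.62 for Foxm1 and -0.64 for Cenpf, and without WT library 3 those of Cenpe and Cenpf were -0.56 and -0.47.

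**Figure D2:**
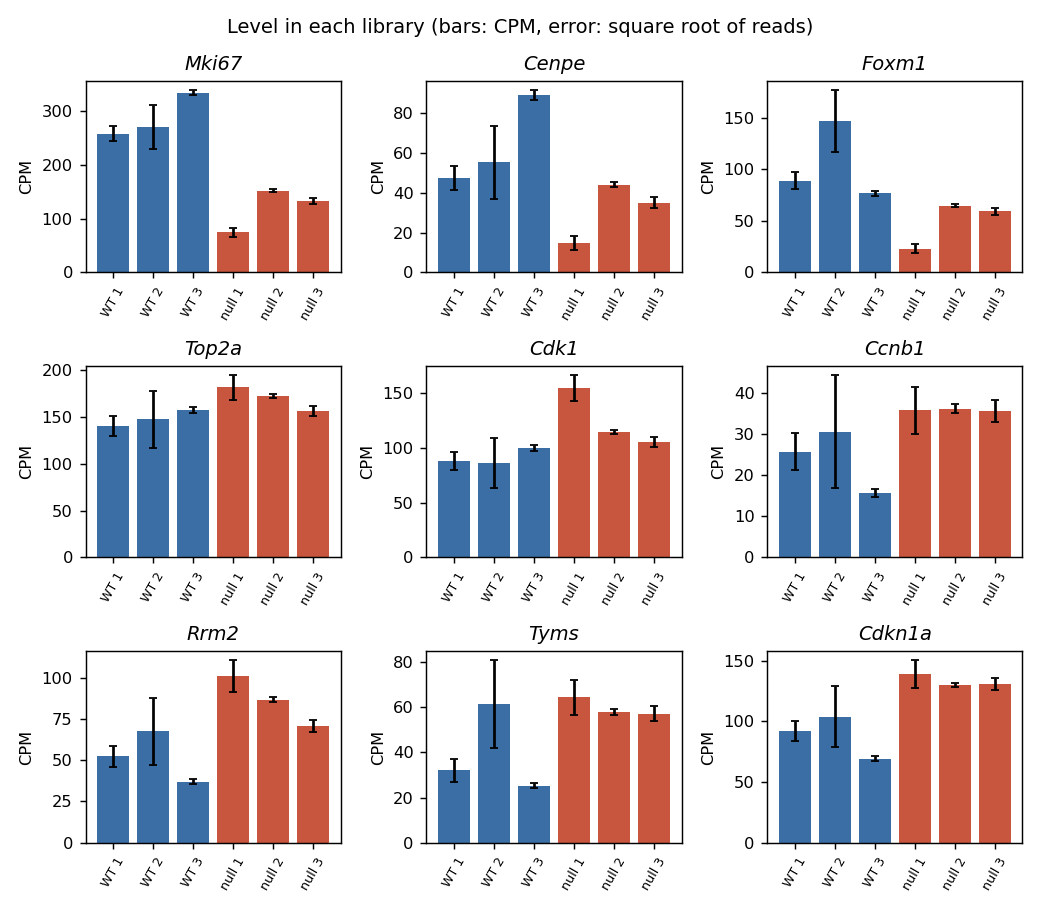
Level of 9 members in each library (CPM, error bars are the square root of the reads and cover counting error only). Mki67, Cenpe and Foxm1 are lower in each Null than in each WT library, Cdk1, Ccnb1, Rrm2 and Cdkn1a are higher, and Top2a and Tyms overlap.

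Other mitosis genes lay on the opposite side of 0. Kif20a, a kinesin of cytokinesis, had the highest log2 fold change of the members, with 2.34, 6.14 and 3.87 CPM for WT and 11.1, 6.72 and 9.44 for Null (1.27, SE 0.47, edgeR adjusted p = 0.121), on 3, 1 and 62 WT reads. Cdc25c, the phosphatase that activates CDK1, stood at 3.9, 6.14 and 5.62 CPM for WT and 10.1, 8.75 and 12 for Null (0.99, SE 0.41, edgeR adjusted p = 0.158). Mad2l1, a spindle checkpoint protein, stood at 42.9, 49.1 and 23.5 CPM for WT and 95.8, 56.3 and 50.4 for Null (0.96, SE 0.35, edgeR adjusted p = 0.114). Each was higher in every Null library than in any WT library, none passed, and without WT library 3 the value of Mad2l1 was 0.53. Cdk1, the mitotic kinase itself, stood at 88.2, 86 and 99.6 CPM for WT and 154, 114 and 105 for Null with no overlap (0.41, SE 0.25, edgeR adjusted p = 0.316), and without Null library 1 its log2 fold change was 0.23. Its highest level was in Null library 1, where Mki67 was lowest. The ratio of Cdk1 to Mki67 was 0.342, 0.318 and 0.298 for WT and 2.06, 0.745 and 0.79 for Null. With the called Mki67 as its denominator, this ratio is not a separate result. The trend with transcript length does not cancel in it, the longest transcripts having 4375 (Cdk1) and 10061 (Mki67) bases.

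The remaining mitosis genes had log2 fold changes from -0.27 to 0.46. Of the mitotic kinases, Aurka stood at 0.31, Aurkb at 0.21 and Plk1 at -0.26. The checkpoint kinases went apart, with Bub1b at 0.46 and Bub1 at -0.27. The kinesins Kif11 and Kif23, of the spindle and the midbody, stood at 0.22 and 0.05. Cdc20 and Ube2c, which work with the anaphase-promoting complex, stood at 0.37 and 0.12, and the spindle assembly factor Tpx2 at -0.02. Birc5, or survivin, of the chromosomal passenger complex, was the most abundant mitosis gene per kilobase of longest transcript and stood at 105, 79.9 and 183 CPM for WT and 97.6, 120 and 115 for Null (-0.24, SE 0.29). Per kilobase it had 36.8 and 33.2 CPM, where Mki67 had 28.6 and 11.9. Without WT library 3 Birc5 stood at 0.17, Kif11 at -0.11, Aurkb at -0.10 and Ube2c at -0.05, on the other side of 0, and Bub1b at 0.15 and Cdc20 at 0.14.

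Among replication genes, the subunits of the MCM helicase, which unwinds DNA, stood close to 0, with a median of 0.11 over 6 genes and overlapping groups for each. Mcm2 was the lowest of the role, with 74.2, 73.7 and 68.4 CPM for WT and 65.4, 82.3 and 68.3 for Null (0.02, SE 0.23). Mcm7 (0.03), Mcm3 (0.09), Mcm4 (0.13) and Mcm6 (0.19) followed, and Mcm5 was the highest subunit (0.47, SE 0.28). Pcna, the sliding clamp of DNA polymerase, was the most abundant replication gene per kilobase (72.6 and 93.2 CPM per kb). It stood at 130, 117 and 83.4 CPM for WT and 156, 139 and 129 for Null (0.39, SE 0.26, edgeR adjusted p = 0.36), and without WT library 3 its log2 fold change was 0.14.

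The enzymes that make DNA building blocks stood higher, with a median of 0.86 over 3 genes. Tyms, thymidylate synthase, stood at 32, 61.4 and 25.3 CPM for WT and 64.5, 58.1 and 57.1 for Null (0.89, SE 0.30, edgeR adjusted p = 0.0926), and overlapped through the 10 reads of WT library 2. Rrm2, the regulated subunit of ribonucleotide reductase, stood at 52.3, 67.6 and 37 CPM for WT and 101, 86.8 and 71 for Null with no overlap (0.86, SE 0.28, edgeR adjusted p = 0.0842). Rrm1, the large subunit, stood at 0.40. Tyms (1.16, limma-voom adjusted p = 0.0369) and Rrm2 (1.07, limma-voom adjusted p = 0.0481) passed in limma-voom with the random effect, the fit that called the most genes. No limma-voom fit without that term was run, so the change of method and the term cannot be told apart. With the libraries of a repeated mouse number summed instead, neither passed (edgeR adjusted p = 0.146 for Tyms and 0.131 for Rrm2). Tyms also passed without WT library 2 (1.10, edgeR adjusted p = 0.0465), and without WT library 3 Tyms stood at 0.62 and Rrm2 at 0.59.

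No cyclin passed in edgeR (2 at an unadjusted p under 0.05, 0 by adjusted p in DESeq2, 1 in limma-voom), and 7 of 8 had values above 0 (all genes 50.7%). Of all genes, edgeR called 5.79% and limma-voom 8.08%. The share of all genes at the unadjusted threshold is not given, so no excess can be read from that count. Ccnb1, which partners CDK1 in mitosis, stood at 25.8, 30.7 and 15.7 CPM for WT and 35.9, 36.3 and 35.8 for Null with no overlap (0.80, SE 0.31, edgeR adjusted p = 0.133). It passed narrowly in limma-voom with the random effect (1.07, limma-voom adjusted p = 0.0499), where method and term changed together. It did not pass with both repeated mouse numbers summed (0.83, edgeR adjusted p = 0.301), and stood at 0.41 without WT library 3 (edgeR adjusted p = 0.488). Ccnb2, the most abundant cyclin per kilobase, stood at 46.8, 43 and 26.1 CPM for WT and 46.1, 44.9 and 46.6 for Null (0.35, SE 0.29), and at a log2 fold change of -0.02 without WT library 3. Ccna2, of S phase and mitosis, stood at 0.11.

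The D-type cyclins, which carry growth signals into the cycle, were spread. Ccnd2 stood at 52.3, 36.9 and 23.2 CPM for WT and 56.2, 64.4 and 68.3 for Null with no overlap (0.83, SE 0.32, edgeR adjusted p = 0.131), and passed without WT library 1 (1.34, edgeR adjusted p = 0.0326). Without WT library 3 it stood at 0.37 (edgeR adjusted p = 0.47). Ccnd1 stood at 83.5, 98.3 and 34.3 CPM for WT and 70.9, 89.8 and 100 for Null (0.46, SE 0.35). Ccnd3 stood at 55.4, 73.7 and 38.9 CPM for WT and 41.5, 56.5 and 63.7 for Null (0.12, SE 0.29). The last pair overlapped. WT library 3 was the lowest WT library for all 3 genes, and without it Ccnd1 stood at -0.01 and Ccnd3 at -0.14. Of the E-type cyclins, which open S phase, Ccne1 was the lowest cyclin by fold change, with 12.5, 12.3 and 15.9 CPM for WT and 13.8, 15.7 and 12.6 for Null (-0.02, SE 0.33). Ccne2 stood at 3.9, 0 and 8.68 CPM for WT and 15.7, 12 and 8.26 for Null (0.79, SE 0.47). Without WT library 3 it stood at 1.74 (SE 0.69, edgeR adjusted p = 0.208), on 5 and 0 reads in WT libraries 1 and 2.

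The transcription factors had unlike values. Foxm1 had the values given above and did not pass. Mybl2 stood at 23.4, 12.3 and 20.9 CPM for WT and 12, 26.2 and 22.2 for Null (0.02, SE 0.34). E2f1, the activator of replication genes and the most abundant of the 3 per kilobase, stood at 64, 18.4 and 65.5 CPM for WT and 33.2, 58.3 and 56.5 for Null (-0.18, SE 0.32). Both overlapped between the genotypes.

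Of the inhibitors, Cdkn1a (p21), a p53 target that blocks cyclin-dependent kinases, stood at 92.1, 104 and 69.3 CPM for WT and 139, 130 and 131 for Null. The groups did not overlap, and the difference did not pass (0.66, SE 0.25, edgeR adjusted p = 0.124, log2 fold change 0.46 without WT library 3). Cdkn2a, the locus of p16 and p19ARF, had 0, 0 and 3 reads in WT and 2, 25 and 7 reads in Null libraries and was too low to be tested. The ratio of pooled reads over scaled totals was 5.25 (95% exact interval 1.65 to 26.7, counting error only).

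The summed CPM of the mitosis genes over that of the replication genes was 1.53, 1.42 and 2.17 for WT and 1.17, 1.24 and 1.31 for Null. The Null ratios all lay under the WT ones, among which library 3 was the highest. Means were 1.71 ± 0.409 and 1.24 ± 0.0668 (SD, n = 3). Without Mki67 the ratios overlapped, at 1.19, 1.05 and 1.62 for WT and 1.09, 1.07 and 1.14 for Null. They also overlapped with each gene scaled to its own mean, at 1.05, 0.932 and 1.29 and 0.915, 0.895 and 1.01. The replication sum was 607 to 753 CPM in WT and 787 to 897 CPM in Null libraries, though singly only 1 of 10 replication genes (Rrm2) did not overlap. The mitosis sum overlapped, at 1044 to 1319 CPM in WT and 1029 to 1115 CPM in Null libraries. Without Mki67 it also overlapped, at 774 to 985 and 896 to 962 CPM.

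**Figure D3:**
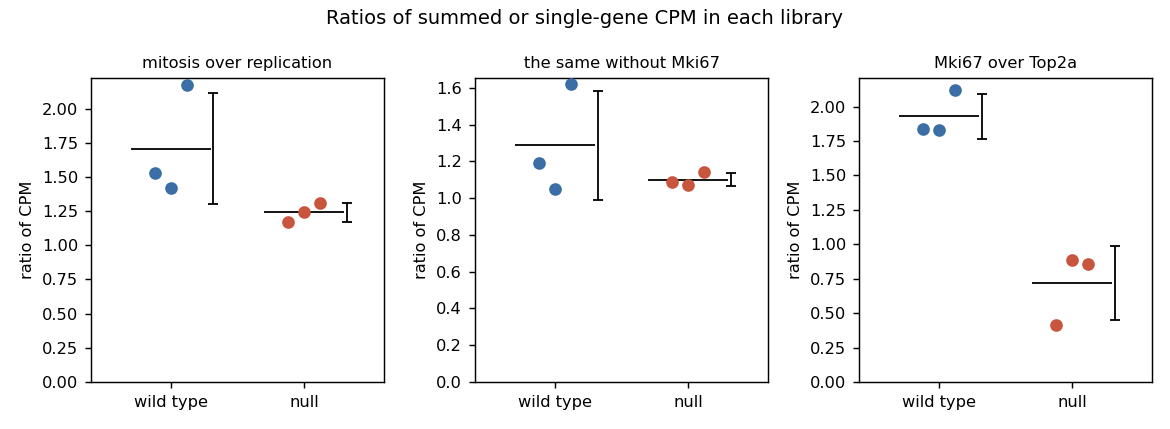
Ratio of summed mitosis to summed replication CPM, the same ratio without Mki67, and the ratio of Mki67 to Top2a in each library (points, with group mean and SD). The first and last do not overlap between the genotypes, and the middle one does.

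For 13 of the 41 tested members (31.7%) the groups did not overlap, 10 being higher and 3 lower in Null. The share over all tested genes was 30.5% (16.2% higher, 14.3% lower), so the members stood near it. Beside those named above, Aurka and Cdc20 were among the higher ones. With repeated mouse numbers summed the share of all genes was 51.4%. It was 40.9%, 46% and 43.4% with WT library 1, 2 or 3 left out, and 36.4%, 39% and 34.3% with Null library 1, 2 or 3 left out.

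Mki67, Cenpf and Cenpe also have the longest annotated transcripts of the members, at 10061, 11130 and 7910 bases. Over all tested genes the median log2 fold change went from 0.45 for 521 genes of up to 1000 bases to -0.43 for 274 genes over 10000 bases. With this trend removed in each library, an alternative chosen after seeing the data that called 5.99% of all genes, Mki67 stood at -0.94 (edgeR adjusted p = 0.048), Cenpe at -0.79 and Cenpf at -0.34. Across the members the correlation of transcript length (log2) with log2 fold change was -0.36 (Pearson) and -0.14 (Spearman, n = 41 genes that share 6 libraries). Mad2l1 and Ccnd2, with longest annotated transcripts of 7557 and 6330 bases, lay above 0. Which transcripts were expressed is not known from the counts, and the part of length in these values was not tested. The share of reads in Lars2, a mitochondrial tRNA synthetase gene, was 0.473 to 1.85% in WT and 0.0417 to 0.166% in Null libraries, and its part in these results was not tested.

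**Figure D4:**
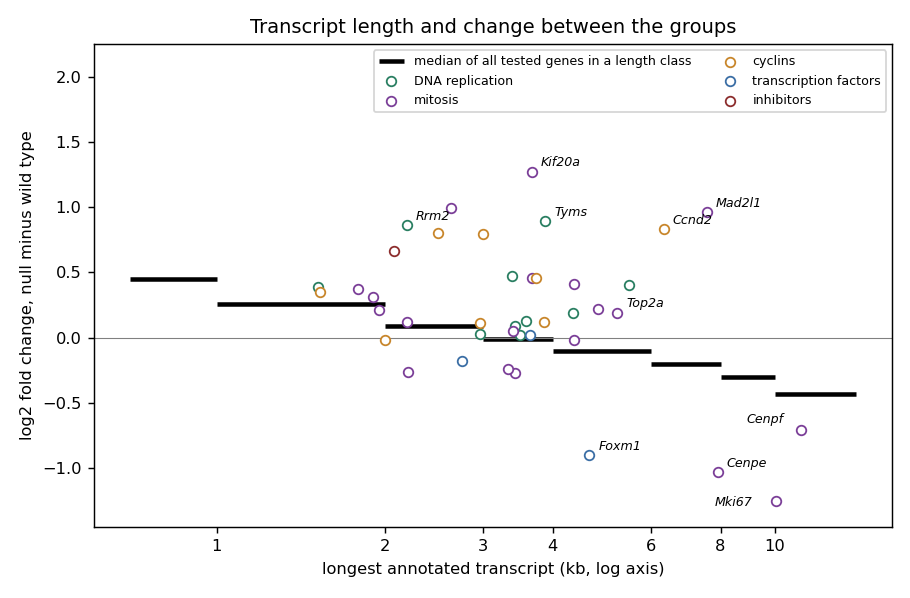
Log2 fold change (Null minus WT) of the 41 tested members against the length of the longest annotated transcript in kilobases (log axis). Black lines give the median of all tested genes in each length class. The lines descend from 0.45 to -0.43, and Mki67, Cenpe and Cenpf lie under the line of their class.

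Further genes of the same pathways gave few calls, where edgeR called 5.79% and limma-voom 8.08% of all genes. The share of all genes at the unadjusted threshold is not given, so no excess can be read from those counts. Of 32 tested other replication genes 0 passed in edgeR (8 at an unadjusted p under 0.05, 0 by adjusted p in DESeq2, 2 in limma-voom). Their values were mostly above 0 (median log2 fold change 0.21, 20 above 0). The highest was Gins2, of the replicative helicase (1.35, SE 0.44, edgeR adjusted p = 0.0855). Of 45 other mitosis genes 1 fell and 0 rose in edgeR (median -0.04). The count in either direction was 9 at an unadjusted p under 0.05, 1 by adjusted p in DESeq2, 4 in limma-voom, the last being Cit, Cdkn3, Dlgap5 and Spc24. The gene that fell was Cit, the citron kinase of cytokinesis, with 57.8, 55.3 and 59.7 CPM for WT and 8.29, 23.2 and 14.2 for Null. Its groups lay far apart, a 3.5-fold fall (-1.81, SE 0.33, edgeR adjusted p = 0.00801), and its call was kept in every alternative run, with a highest adjusted p of 0.0343 in edgeR without Null library 1. Its longest transcript has 9514 bases, and with the length trend removed it stood at -1.52 (edgeR adjusted p = 0.013).

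Of 19 tested other kinases, inhibitors and pocket proteins 0 passed in edgeR (1 at an unadjusted p under 0.05, 0 by adjusted p in DESeq2, 0 in limma-voom), and their median was -0.15. Cdkn1b (p27), a further inhibitor, was the highest, with 63.2, 67.6 and 71.7 CPM for WT and 190, 97.6 and 92.9 for Null (0.88, SE 0.31, edgeR adjusted p = 0.104). Of 15 p53 target genes 1 rose and 1 fell in edgeR (median 0.12), where edgeR called 5.79% and limma-voom 8.08% of all genes. Here too the share of all genes at the unadjusted threshold is not given. The count in either direction was 4 at an unadjusted p under 0.05, 2 by adjusted p in DESeq2, 3 in limma-voom, with Perp and Ccng1 in both of these and Bax in limma-voom. Ccng1, which was not called in edgeR, stood at 0.91 (edgeR adjusted p = 0.0586). Eda2r, a receptor of the TNF receptor family, rose from 2.34, 0 and 4.56 CPM to 24, 10.8 and 14.8 CPM (2.02, SE 0.49, edgeR adjusted p = 0.0322). That call was lost without WT library 1 (adjusted p = 0.055) or 3 (0.0801) and without Null library 1 (0.12) or 3 (0.095) in edgeR, in DESeq2 (0.0571) and in limma-voom (0.0637). Perp, which is also a desmosome gene of epithelia, fell from 140, 141 and 83.9 CPM to 33.2, 26.9 and 35.2 CPM (-1.89, SE 0.28, edgeR adjusted p = 0.00273), with a highest adjusted p of 0.0199 over the alternatives.

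Some members overlap other genes in the annotation, so reads could be mixed or set aside. The shared part of the exons was 29.3% for Kif20a (with Cdc23), 23.4% for Ccnd1, 22.8% for Ube2c (with the muscle gene Tnnc2), 17.4% for Ccne2, 12.7% for Cdc25c, 12.6% for Mcm7 and 12.5% for Ccna2. Mki67, Cenpe, Cenpf, Rrm2, Tyms and Ccnb1 shared none.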

How the data were processed

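Counts are the only unit: the authors deposited whole-number reads for each Ensembl gene and library, without normalization. The submitters' processing notes name TopHat2, Cuffdiff, DESeq2 and mm9, with neither version nor role. Which counter, annotation and strand setting were used is not stated there. The 5 closing lines of each file were left out. They hold 32.9 to 40% multiply aligned, 4.63 to 12% unassigned and 1.72 to 2.11% ambiguous reads. Symbols and lengths came from GENCODE M21, a later build, by identifier (32919 matched). Cdkn2d found no match.

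Genes were tested in R 4.3.3 with edgeR 4.0.16 (TMM, default expression filter, robust quasi-likelihood fit of 6 libraries, no covariate). The script was tested on simulated data. CPM is TMM scaled over tested genes. The SE is derived from fold change and F statistic. Alternatives used DESeq2 1.42.0, limma 3.58.1, other scalings and filters, summed libraries and libraries left out. Values per library are given for members past the threshold, the extremes and most abundant of each role, Cdk1, the D cyclins and inhibitors, and others chosen after their values were seen. The members and lists were chosen with earlier results of these data known. Replicate numbers only name libraries, and p-values reflect variation among these libraries only, part of which may be technical.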

Additional observations from a re-analysis of the deposited data

How the results depend on the processing

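No paired analysis was possible because replicate numbers here only follow accession order, which pairs nothing, and no mouse number occurs in both genotypes. Of 652 values of single members under an alternative, 598 kept call and direction, 6 (Mki67) lost the call and 5 (Rrm2, Tyms, Ccnb1, Ccnd2) gained one. The other 43 changed sign, all of them uncalled before and after. Those with 1 library left out are of genes that ranged from -0.12 to 0.07 for Mcm2, -0.01 to 0.20 for Mcm3, -0.00 to 0.48 for Mcm4, -0.23 to 0.18 for Mcm7, -0.10 to 0.50 for Aurkb, -0.11 to 0.56 for Kif11, -0.08 to 0.14 for Kif23, -0.18 to 0.15 for Tpx2, -0.38 to 0.17 for Birc5, -0.05 to 0.20 for Ube2c, -0.03 to 0.40 for Ccna2, -0.02 to 0.68 for Ccnb2, -0.01 to 0.88 for Ccnd1, -0.14 to 0.26 for Ccnd3, -0.15 to 0.17 for Ccne1 and -0.23 to 0.20 for Mybl2, and the most, 11, came without WT library 3. The others were -0.01 for Mcm2 and -0.00 for Mcm7 with at least 10 CPM in 3 libraries, -0.02 for Mcm4 and -0.01 for Kif23 with the random effect, -0.00 for Mcm7, 0.06 for Tpx2 and -0.04 for Ube2c with the length trend removed, -0.11 for Kif23, 0.01 for Ccne1 and -0.10 for Mybl2 with both repeated mouse numbers summed, -0.01 for Kif23 and -0.03 for Mybl2 with the WT one summed, -0.05 for Kif23, -0.00 for Ccna2 and 0.02 for E2f1 with the GC trend removed and 0.00 for Ccne1 with upper-quartile scaling. The count of members that passed (1) was 0 with both repeated mouse numbers summed, 0 with the WT one summed, 4 with the random effect and 0 to 2 with 1 library left out. Over all genes 688 passed, and 179 (without Null library 1) to 855 with 1 library left out, including 225 without Null library 3 and 281 without WT library 3. The mitosis median (0.19) was 0.09 with at least 10 CPM in 3 libraries and 0.06 and 0.05 with the length or GC trend removed (both chosen after seeing the data). The cyclin median (0.41) was 0.63 with the random effect. With 1 library left out the medians ran from 0.20 to 0.41 for replication, 0.08 to 0.20 for mitosis, 0.27 to 0.61 for cyclins and -0.34 to -0.02 for transcription factors. Members whose groups did not overlap (13) numbered 23 with both sums, when 51.4% of all genes did so, and 14 to 20 with 1 library left out, when 34.3 to 46% of all genes did. The cause was not tested. Depth limits Cdkn2a, Ccne2, Kif20a and Cdc25c, and WT library 2 throughout.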
